A study of Homo sapiens with 6 samples.

Results

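Transcripts of 8 genes that are read as signs of injury to the kidney tubule were followed across the 6 RNA libraries of an HK-2 experiment: HAVCR1, which encodes KIM-1, together with LCN2, SPP1, CLU, VIM, SOX9, CD44 and TIMP1. They were taken by symbol from the table of deposited values, and all 8 of 8 were found among its 18969 rows. HK-2 is an immortalised line of human proximal tubule epithelium, and the labels also name kidney tissue as its source. Every culture received cisplatin, a platinum drug that crosslinks DNA, at 20 µM, so no library here shows the cells without the drug. Controls were wild-type cells (3 libraries). The other 3 libraries were labelled as overexpressing NFE2L1, the transcription factor often called Nrf1, which drives proteasome genes. The labels name no vector, promoter or clone for the overexpression. They do not say whether libraries of a group came from separate cultures, so the spread that the p-values rest on may be technical only.

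An injured proximal tubule cell loses its transport programme and takes on a repair programme. KIM-1, a membrane protein with an immunoglobulin and a mucin domain, is scarce in healthy tubules and abundant on injured ones, where it binds phosphatidylserine and lets the cell engulf dying neighbours. Its outer part is shed into urine, as is lipocalin-2, the LCN2 product. Osteopontin (SPP1), clusterin (CLU) and the metalloproteinase inhibitor TIMP1 are secreted by the damaged tubule. Vimentin (VIM), the factor SOX9 and the hyaluronan receptor CD44 mark cells that have dedifferentiated and are repopulating it.

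The libraries held 16865460 to 23458333 counted reads. NFE2L1 was raised in only some of the libraries labelled for it. It stood at 234.2, 253.3 and 246.2 CPM (read counts brought to a common library size with TMM factors) in controls. It stood at 244.7, 744.0 and 339.5 CPM in libraries 1, 2 and 3 labelled overexpression. Library 1 was thus within the control range, and every direction below compares labels, with that library included. Markers of a mature proximal tubule cell were nearly silent, since the 4 of 10 with a row here (AQP1, GGT1, SLC34A1, SLC5A2) summed to 0.378 to 0.677 FPKM (read counts scaled for gene length and library depth). Of 7 general markers of kidney epithelium, 6 had a row here, all but CDH1. PAX8 lay between 17.8 and 53.9 FPKM and KRT8 between 405.0 and 744.5 FPKM, whereas PAX2 had at most 31 counts in any library. Of the markers of fibroblasts, the matrix gene LUM fell from 39.7 ± 4.04 to 14.9 ± 1.94 CPM (mean ± SD, n = 3, a difference of -1.42 on the log2 scale with adjusted p = 0.0105 in edgeR), and the 5 markers with a row summed to 15.0 to 18.3 FPKM in controls and 5.66 to 7.29 FPKM in libraries labelled overexpression. LUM made up most of that sum, and the next most abundant, the collagen gene COL1A1, had 1.36 FPKM in controls and 1.35 FPKM in the other group (0.14 on the log2 scale, adjusted p = 0.765 in edgeR). Collagen gene COL3A1 and receptor gene PDGFRB had at most 5 and 11 counts in any library. Of the white blood cell markers, 2 of 5 had a row and summed to 0.812 to 2.68 FPKM, and of 4 endothelial markers 0 had one. The part of the fibroblast markers in the results was not tested. In bulk RNA fewer cells of a type and less RNA per cell cannot be told apart.

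The promoter windows of 3 members are shown because their transcripts bear the results: HAVCR1 fell, TIMP1 rose, and the window of CD44 holds the motif of the factor family that NFE2L1 belongs to. Each runs from 250 bases before to 50 after the RefSeq start (GRCh38.p14), 5′ to 3′ on the strand of the gene. HAVCR1 lies at chr5:157059067-157059366 (minus strand), TIMP1 at chrX:47582186-47582485 (plus strand) and CD44 at chr11:35138921-35139220 (plus strand). Capitals mark a match to one of 3 motifs.
HAVCR1: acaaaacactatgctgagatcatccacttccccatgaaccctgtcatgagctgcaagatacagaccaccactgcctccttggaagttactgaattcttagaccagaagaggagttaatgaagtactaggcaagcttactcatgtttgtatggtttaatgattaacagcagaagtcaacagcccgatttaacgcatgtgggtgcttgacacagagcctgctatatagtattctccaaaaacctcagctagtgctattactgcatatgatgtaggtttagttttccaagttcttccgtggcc
TIMP1: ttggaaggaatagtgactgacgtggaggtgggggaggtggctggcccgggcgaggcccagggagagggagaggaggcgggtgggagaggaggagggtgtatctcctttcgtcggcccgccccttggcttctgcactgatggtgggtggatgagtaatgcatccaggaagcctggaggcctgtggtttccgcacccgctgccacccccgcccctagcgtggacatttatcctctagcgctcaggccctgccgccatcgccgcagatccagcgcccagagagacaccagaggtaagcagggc
CD44: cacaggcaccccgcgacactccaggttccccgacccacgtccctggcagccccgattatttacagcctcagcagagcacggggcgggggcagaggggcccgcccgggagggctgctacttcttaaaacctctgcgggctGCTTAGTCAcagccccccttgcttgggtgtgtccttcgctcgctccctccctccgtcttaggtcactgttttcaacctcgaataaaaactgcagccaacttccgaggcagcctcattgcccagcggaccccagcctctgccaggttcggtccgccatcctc

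The motifs were the antioxidant response element TGACNNNGC, to which NFE2L1 binds with small MAF partners, the AP-1 site TGANTCA and the STAT site TTCNNNGAA, each searched on both strands. The first and second can overlap. Windows matched 6 of the 8 members, the others being CLU and SOX9. In CD44 the antioxidant element stood on the minus strand at -111 to -103 from the start. The LCN2 window held an AP-1 site at -52 to -46, and none of the 3 motifs was in the windows of HAVCR1, TIMP1, SPP1 or VIM. Among 35116 promoter windows of this length, 13.3% held the antioxidant element, 7.71% the AP-1 site and 7.66% the STAT site. A match is a run of letters and not a measured binding site.

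Of the 8 members, 1 fell (HAVCR1) and 1 rose (TIMP1) in the libraries labelled overexpression, and 6 did not pass (edgeR quasi-likelihood test, Benjamini-Hochberg adjusted p under 0.05 over 15046 genes). Among all genes tested, 19.1% passed, 9.62% upward and 9.49% downward, so 2 of 8 is near the background. The median log2 fold change was 0.032 over the members and 0.031 over all genes. In 4 members (HAVCR1, VIM, CD44 and TIMP1) no library of one group overlapped the other, which held for 42.6% of all genes.

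**Figure D1:**
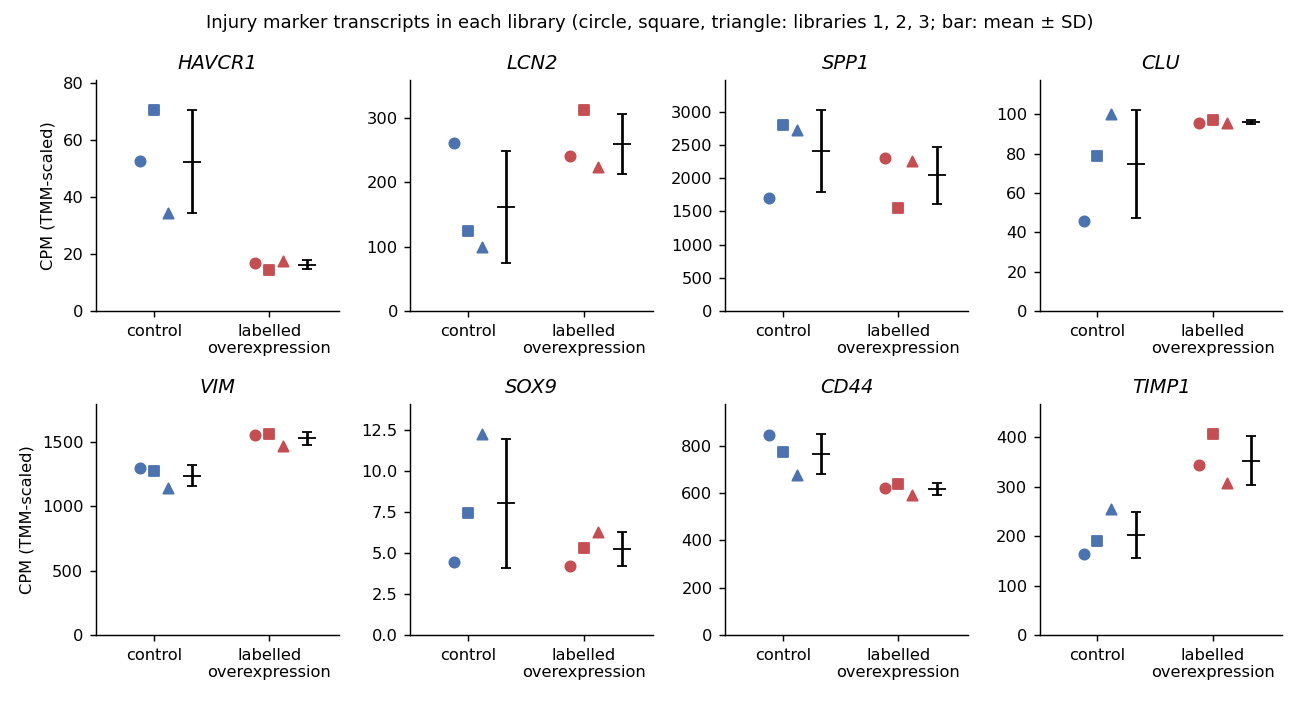
Level of each of the 8 transcripts (y axis, CPM scaled with TMM factors, from 0) in each library, in blue for the 3 controls and red for the 3 libraries labelled overexpression. Symbols stand for libraries 1, 2 and 3, and bars for the mean ± SD; HAVCR1 lies at 34.2 to 70.4 CPM in controls and at 14.4 to 17.5 CPM in the other group.

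HAVCR1 (ENSG00000113249, chromosome 5, 157029413 to 157059119, minus strand, GRCh38.p13) was the member that differed most. Controls held 52.5, 70.4 and 34.2 CPM, and the libraries labelled overexpression held 16.7, 14.4 and 17.5 CPM. Every control lay above every library of the other group, and the controls differed among themselves by up to 2.06-fold. On the log2 scale the difference was -1.70 (SE 0.27), with a 95% interval of -2.30 to -1.09, a level 30.9% of that in controls (edgeR adjusted p = 0.0109). By size of fall it was in place 28 among 12465 protein-coding genes tested. Permuting the 6 log2 values over both groups (exact, two-sided) gave p = 0.1, the smallest that 3 libraries against 3 allow. In the authors' deposited table its log2 fold change is -1.73 and its adjusted p 7.43e-07.

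The fall of HAVCR1 passed without control 3 and without each library labelled overexpression (edgeR adjusted p from 0.00641 to 0.0370), but not without control 1 (log2 fold change -1.70, adjusted p = 0.0811) or control 2 (-1.43, adjusted p = 0.0694). Without control 2 no gene of the whole table passed in edgeR, where 3863 genes had an unadjusted p under 0.05. Fold changes in this comparison followed gene length and GC content, with a Spearman rho across genes, which are not independent replicates, of -0.54 and 0.55. With an offset that removes both trends in each library, HAVCR1 had a log2 fold change of -1.88 (SE 0.27, edgeR adjusted p = 0.0394), while the number of genes passing dropped to 104 in all.

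HAVCR1 was low in all 3 libraries labelled overexpression, while NFE2L1 differed among them. Relative to the mean of controls on the log2 scale, NFE2L1 stood at 0.0017, 1.61 and 0.47 in libraries 1, 2 and 3 labelled overexpression. HAVCR1 stood at -1.58, -1.80 and -1.52 in the same libraries. These 3 values were close together, and library 1, with NFE2L1 at the control level, was among them. Without library 1 the fall was -1.72 (edgeR adjusted p = 0.0234).

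**Figure D2:**
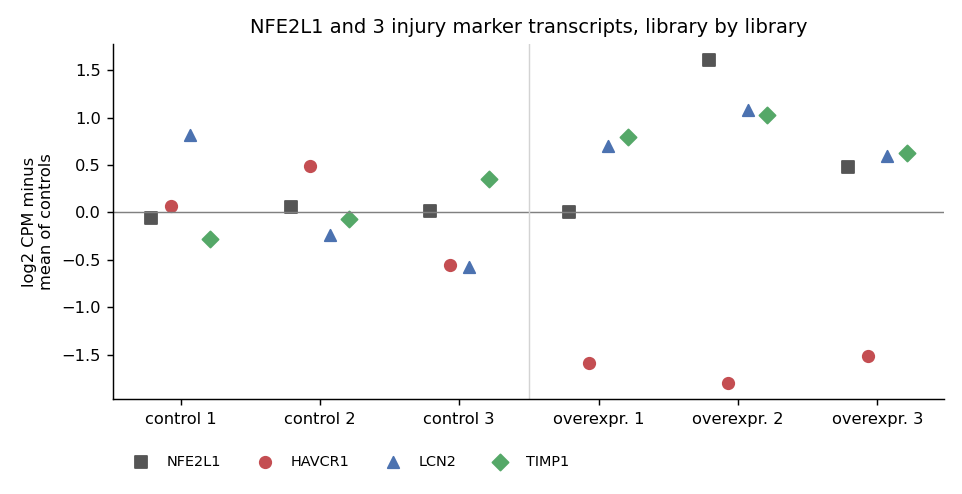
Log2 CPM minus the mean of the 3 controls (y axis) for NFE2L1, HAVCR1, LCN2 and TIMP1 in each of the 6 libraries (x axis). HAVCR1 sits between -1.80 and -1.52 in all 3 libraries labelled overexpression, while NFE2L1 ranges from 0.0017 to 1.61 there.

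Ratios between members within a library do not depend on how libraries are scaled, though a trend with gene length still enters them. HAVCR1 counts were 20.1%, 56.2% and 34.4% of LCN2 counts in controls 1, 2 and 3, and 6.91%, 4.59% and 7.79% in libraries 1, 2 and 3 labelled overexpression. Against VIM they were 4.06%, 5.53% and 2.99% in controls and 1.08%, 0.922% and 1.19% in the other group. All 7 ratios of HAVCR1 to another member share its fall, so they are no separate evidence for it. The groups were apart for 6 of them. SOX9 was the exception. The ratio of HAVCR1 to SOX9 in FPKM was 28.7, 22.9 and 6.79 in controls and 9.62, 6.58 and 6.74 in the other group, so control 3 lay among the latter.

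The relatives of KIM-1 were scarce. TIMD4, which encodes TIM-4, another phosphatidylserine receptor, had 10 to 23 counts per library and a log2 difference of 0.16 (adjusted p = 0.834 in edgeR). HAVCR2, the gene of the immune checkpoint receptor TIM-3, had 1 to 12 counts and was removed by the filter on low counts. Among the other genes within 500 kb of HAVCR1, the metalloproteinase gene ADAM19 fell from 33.1 to 18.4 CPM (-0.85 on the log2 scale, adjusted p = 0.0179 in edgeR). MED7 (0.20), NIPAL4 (0.11) and CYFIP2 (0.90) did not pass.

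Of genes known to act on KIM-1, several were measured. The sheddase gene ADAM10 (-0.85), STAT3 (-0.53), the checkpoint kinase gene CHEK1 (-0.36), the G protein gene GNA12 (-0.26), ADAM17 (-0.18), the KIM-1 binding partner gene TMBIM1 (0.26) and the ERK1 gene MAPK3 (0.69) did not pass.

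The genes whose level followed that of HAVCR1 most closely over the 6 libraries were ZNF592, APP, AHNAK, SMC1A and AMOTL1, with Pearson r on log2 CPM from 0.995 to 0.999. These were the top 5 of 8940 protein-coding genes with a mean of at least 10 CPM, of which 960 had r above 0.9. The points share 2 groups and the length trend of each library. Pearson r thus describes only how alike the profiles ran over these 6 libraries, and not the size of a change. The top 5 genes had smaller log2 fold changes than HAVCR1, from -1.06 for AHNAK, a giant scaffold protein gene, to -0.30 for the zinc finger gene ZNF592. The last of these did not pass (edgeR adjusted p = 0.251).

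LCN2 (ENSG00000148346, chromosome 9, 128149071 to 128153453, plus strand) encodes an iron-siderophore carrier also known as NGAL. Controls held 260.8, 125.2 and 99.6 CPM. Libraries 1, 2 and 3 labelled overexpression held 241.5, 312.8 and 224.3 CPM. Control 1 lay among the other group, at more than double the levels of controls 2 and 3. The fold change on the log2 scale was 0.68 with a 95% interval of -0.066 to 1.43, which did not pass (edgeR adjusted p = 0.174). Without control 1 the log2 fold change was 1.20 (edgeR unadjusted p = 0.000916, adjusted p = 0.0811). Without control 2 it was 0.52 and without control 3 it was 0.42 (edgeR adjusted p = 0.425 and 0.382). Leaving out single libraries labelled overexpression gave 0.52 to 0.77. After the length and GC correction it was -0.076, so its sign depended on that setting.

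Of 6 tested partners of lipocalin-2, NFKBIZ, a nuclear coactivator of NF-kB that promotes LCN2 transcription, fell from 199.9 ± 35.0 to 120.5 ± 24.2 CPM (mean ± SD, n = 3, a difference of -0.73 on the log2 scale with adjusted p = 0.0384 in edgeR). MMP9, the gelatinase that binds lipocalin-2, rose by 1.62 on the log2 scale (edgeR adjusted p = 0.0494) but reached no more than 74 counts in a library. The receptor gene SLC22A17 (0.10), CEBPB (0.35), RELA (0.28) and NFKB1 (-0.35) did not pass.

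TIMP1 (ENSG00000102265, chromosome X, 47582408 to 47586789, plus strand) was the member that rose. Controls held 164.1, 189.7 and 255.2 CPM, and the libraries labelled overexpression held 344.9, 406.0 and 307.6 CPM. No library overlapped the other group. On the log2 scale the difference was 0.80 (SE 0.20), with a 95% interval of 0.35 to 1.24 (edgeR adjusted p = 0.0269), while the authors' deposited table has 0.77 and an adjusted p of 0.00742. It did not pass without control 1 (0.66, edgeR adjusted p = 0.121) or control 2 (0.75, adjusted p = 0.114). TIMP1 is the shortest member, at 0.769 kb, with a GC content of 57.9%, and the length and GC correction took its log2 fold change to 0.067 (edgeR adjusted p = 0.842). The gene lies within SYN1, a synapsin gene on the other strand, which had at most 12 counts.

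Beside TIMP1, 8 genes of the metalloproteinase system were tested, of which 2 rose (MMP9 and CD63) and 1 fell (MMP1), where 19.1% of all genes passed. CD63, a tetraspanin to which TIMP1 binds, rose from 967.0 ± 96.7 to 1473 ± 88.6 CPM (mean ± SD, n = 3, a difference of 0.61 on the log2 scale with adjusted p = 0.0213 in edgeR). The collagenase gene MMP1, which TIMP1 inhibits as a protein, fell by 2.12 on the log2 scale (adjusted p = 0.0141 in edgeR). The ratio of TIMP1 to MMP1 in FPKM was 9.88, 3.67 and 4.55 in controls and 37.1, 37.3 and 36.4 in the libraries labelled overexpression. Each gene alone was apart between the groups, in opposite directions, so the ratio had to be apart too and is no further evidence. TIMP2 had a log2 fold change of 0.086, MMP14 one of -0.33 and MMP7 one of -0.30, and none of these passed.

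SPP1 (ENSG00000118785, chromosome 4, 87975667 to 87983532, plus strand) was the most abundant member. Controls held 1697, 2803 and 2730 CPM. Libraries 1, 2 and 3 labelled overexpression held 2311, 1549 and 2267 CPM. The groups overlapped, with control 1 below 2 libraries of the other group. Its log2 fold change was -0.24 with a 95% interval of -0.76 to 0.28 (edgeR adjusted p = 0.484). Its receptors include integrins, and ITGB1, the shared beta-1 subunit, fell from 1151 ± 138.3 to 405.8 ± 127.0 CPM (mean ± SD, n = 3, a difference of -1.50 on the log2 scale with adjusted p = 0.0109 in edgeR). None of the other integrin genes tested beside it passed, and with the length and GC offset ITGB1 did not pass either.

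CLU (ENSG00000120885, chromosome 8, 27596917 to 27614700, minus strand), the secreted chaperone gene, varied among controls at 45.9, 78.6 and 100.2 CPM. The libraries labelled overexpression held 95.4, 97.0 and 95.9 CPM. These 3 values are close together and lie within the control range. On the log2 scale the groups differed by 0.36 with a 95% interval of -0.22 to 0.94 (edgeR adjusted p = 0.342). The clusterin receptor genes LRP8 (-0.20) and VLDLR (-0.45) and the heat shock factor gene HSF1 (0.49) did not pass either.

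VIM (ENSG00000026025, chromosome 10, 17228241 to 17237593, plus strand) encodes the intermediate filament of mesenchymal and dedifferentiated cells. Controls held 1294, 1272 and 1146 CPM, and the libraries labelled overexpression held 1552, 1559 and 1468 CPM. The groups did not overlap, yet the difference was small, with a log2 fold change of 0.30 and a 95% interval of 0.014 to 0.59. It did not pass (edgeR unadjusted p = 0.0417, adjusted p = 0.124), and on FPKM rescaled to a common sum it was -0.14, where all genes stood at a median of -0.35. The antisense gene VIM-AS1, which overlaps its start, had 75 to 184 counts, against 24198 to 33307 for VIM.

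CD44 (ENSG00000026508, chromosome 11, 35138882 to 35232402, plus strand) binds hyaluronan and osteopontin. Controls held 842.7, 774.1 and 678.0 CPM. Those labelled overexpression held 623.0, 639.4 and 590.1 CPM. All 3 of the latter lay below every control. The fold change on the log2 scale was -0.31 with a 95% interval of -0.62 to 0.0068 (edgeR adjusted p = 0.147). It was -0.44 on log2(FPKM + 1) and passed there (limma adjusted p = 0.0352), and 0.11 with the length and GC offset (edgeR adjusted p = 0.754), so both its call and its sign depended on the setting. At 5.43 kb it is the longest member. Counts per gene do not separate its splice variants.

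SOX9 (ENSG00000125398, chromosome 17, 72121020 to 72126416, plus strand), a transcription factor of regenerating tubule cells, was the least abundant member. Controls held 103, 170 and 258 counts, or 4.44, 7.45 and 12.2 CPM. The libraries labelled overexpression held 68, 113 and 134 counts, or 4.2, 5.29 and 6.28 CPM. The groups overlapped, as control 1 was below 2 libraries of the other group. Its log2 fold change was -0.61 with a 95% interval of -1.44 to 0.23 (edgeR adjusted p = 0.269), an interval that includes no change. Of its relatives, SOX12 rose by 0.62 (edgeR adjusted p = 0.0338), and SOX4, at 90.3 CPM in controls, had a log2 difference of 0.092 (adjusted p = 0.719 in edgeR).

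**Figure D3:**
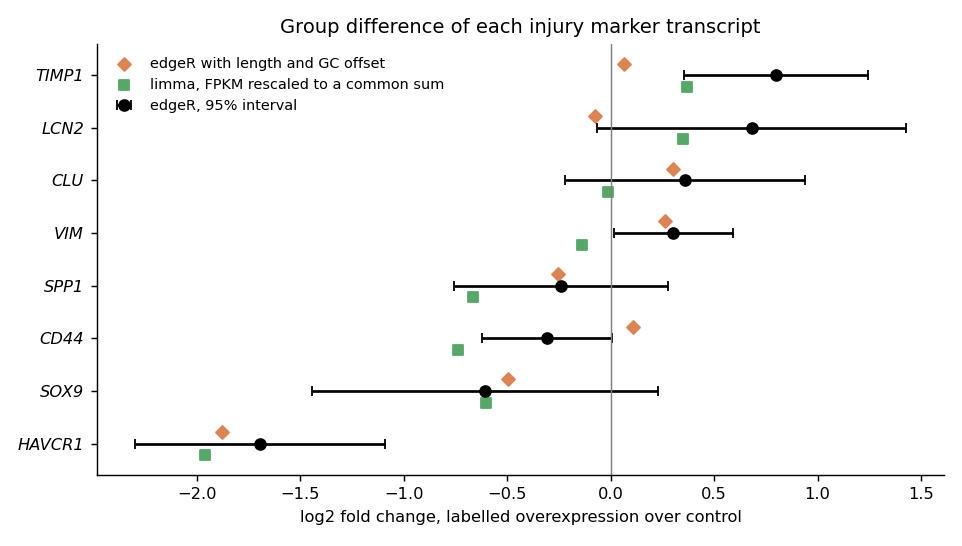
Log2 fold change of each member, libraries labelled overexpression over controls (x axis), with its 95% interval from edgeR in black, the value with a length and GC offset as orange diamonds and the value on FPKM rescaled to a common sum as green squares. HAVCR1 lies between -1.96 and -1.70 on these 3 scales, and TIMP1 moves from 0.80 to 0.067 with the offset.

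The levels of the members can be set against each other only per length. In controls the order by mean FPKM was SPP1 (1620 ± 425.4), VIM (601.5 ± 30.7), TIMP1 (277.1 ± 68.3), LCN2 (206.1 ± 108.4), CD44 (147.4 ± 14.1), HAVCR1 (33.7 ± 11.3), CLU (28.6 ± 10.8) and SOX9 (2.15 ± 1.08; SD, n = 3 each). TIMP1, LCN2 and CD44 overlapped as neighbours in that order, LCN2 with both of the others, and so did HAVCR1 and CLU. In the libraries labelled overexpression the order was SPP1 (1253 ± 303.0), VIM (674.6 ± 15.9), TIMP1 (435.5 ± 42.8), LCN2 (300.1 ± 41.3), CD44 (108.2 ± 1.54), CLU (33.3 ± 1.19), HAVCR1 (9.52 ± 1.33) and SOX9 (1.28 ± 0.28). There every neighbour was apart from the next. HAVCR1 went from rank 2327 to rank 5468 of all rows by mean FPKM, whereas SPP1 went from 35 to 82 and VIM from 109 to 133.

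All 8 members varied less among the libraries labelled overexpression than among controls. The coefficient of variation of CPM lay within 0.828% to 20.9% in the former and within 6.48% to 53.5% in the latter (n = 3 each). LCN2 went from 53.5% to 18.1%, CLU from 36.6% to 0.828% and HAVCR1 from 34.5% to 9.97%. Over all genes the reverse was common: only 31.1% had the smaller coefficient in the libraries labelled overexpression, and the median coefficient was 15.4% in controls and 23.1% in the other group. The value for CLU is below the 2.32% that counting error alone would give at its depth, so it is no measure of the spread between cultures.

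**Figure D4:**
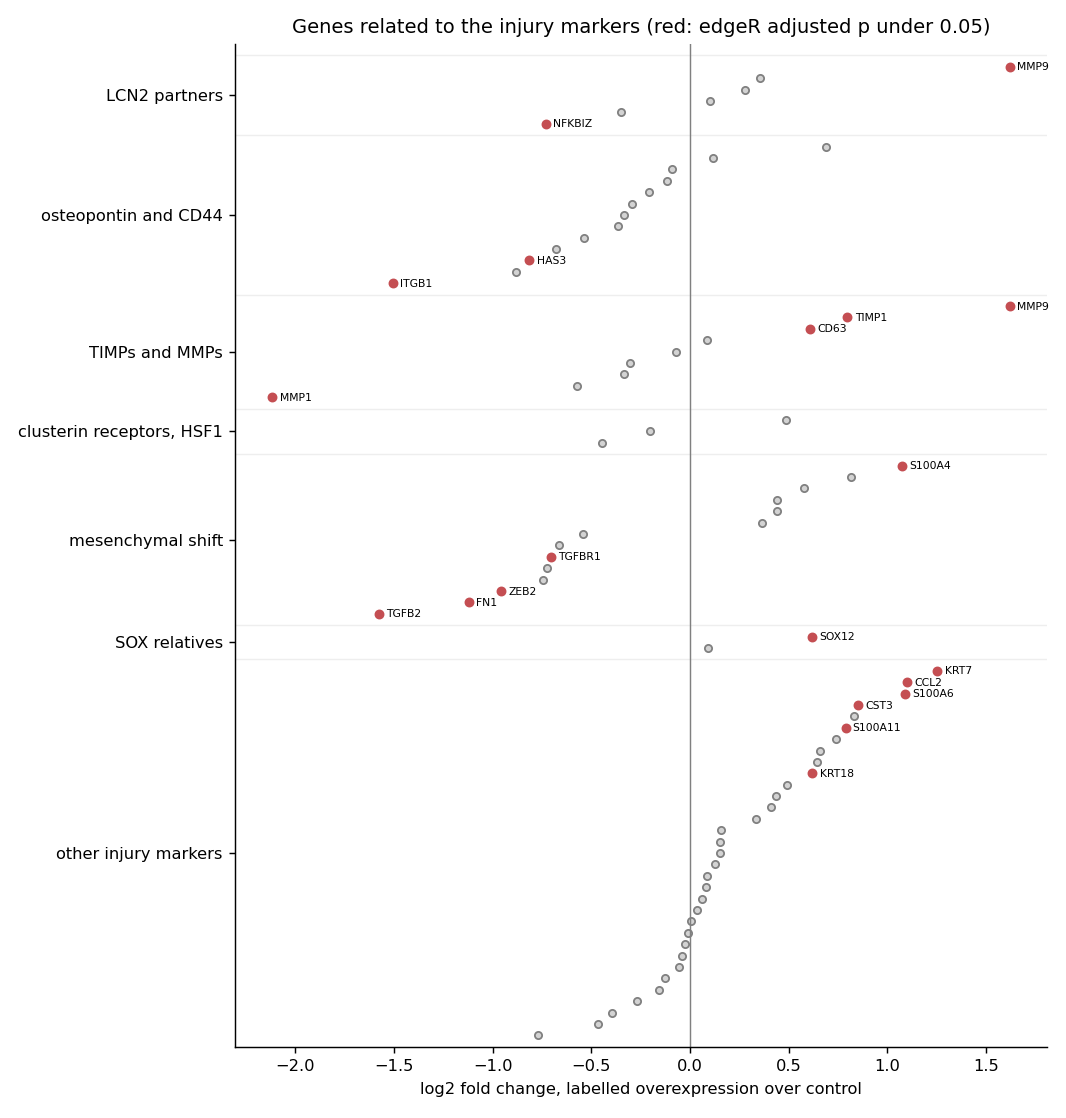
Log2 fold change (x axis, libraries labelled overexpression over controls) of each tested gene in 7 of the lists of related genes, 1 point a gene, sorted within its list. Red points passed (edgeR adjusted p under 0.05); in the mesenchymal list 4 of the 5 red points lie between -1.58 and -0.71, and in the list of other injury markers the 6 red points lie between 0.62 and 1.25.

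Over the 90 tested genes related to the members by function, 10 rose and 10 fell, at a median log2 fold change of -0.026, and the share that passed was near the 19.1% of all genes. Among 33 other markers of tubular injury or stress, 6 passed, all upward, and 27 did not pass. Of all genes 19.1% passed, 9.62% upward, so the number that passed is near the background. The median log2 fold change of these 33 was 0.15, against 0.031 for all genes. With the length and GC offset it was 0.0051, against 0.024 for all genes, and 0 of the 33 passed. The calcium-binding protein genes S100A6 and S100A11 rose from 608.9 ± 120.5 to 1297 ± 265.4 CPM and from 580.4 ± 112.4 to 1003 ± 68.3 CPM (mean ± SD, n = 3, log2 differences of 1.09 and 0.79, edgeR adjusted p = 0.0132 and 0.0179). CST3, the gene of the filtration marker cystatin C, rose by 0.85, and KRT18, a keratin of simple epithelia with many processed pseudogenes and hence uncertain counts, by 0.62. KRT7 (1.25) and the chemokine gene CCL2 (1.10), named after their values were seen, completed the 6. The urinary cell-cycle arrest markers TIMP2 (0.086) and IGFBP7 (0.41), the stress cytokine gene GDF15 (0.65) and the p21 gene CDKN1A (0.15) did not pass.

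Of 14 tested genes of the mesenchymal shift that often accompanies vimentin, 4 fell and 1 rose, where 9.49% of all genes fell and 9.62% rose. Their median log2 fold change was -0.60, against 0.031 for all genes, and -0.18 with the length and GC offset, where it was 0.024 for all genes. Fibronectin gene FN1 fell from 6290 ± 1170 to 2889 ± 69.6 CPM (mean ± SD, n = 3, a difference of -1.12 on the log2 scale with adjusted p = 0.0105 in edgeR), TGFB2 by 1.58, the repressor gene ZEB2 by 0.96 and the receptor gene TGFBR1 by 0.71 on the log2 scale. S100A4, named after its value was seen, rose by 1.07. SNAI1 (0.37), SNAI2 (-0.54), TWIST1 (0.44), ZEB1 (-0.72) and TGFB1 (0.44) did not pass.

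In the osteopontin and CD44 list, 2 of 13 passed, both downward, ITGB1 and the hyaluronan synthase gene HAS3 (-0.81, edgeR adjusted p = 0.0399). Of all genes 19.1% passed, 9.49% downward, so 2 of 13 is near the background. The alpha-V integrin gene ITGAV (-0.88), the CD44 linker genes MSN (-0.54), RDX (-0.68) and EZR (-0.089), and the splicing regulator gene ESRP2 (-0.21) did not pass. Of genes of the failed-repair state, CCL2 rose, as given above, while DCDC2 (-0.17), ITGB6 (0.097), ITGB8 (-0.93), TPM1 (-0.026), CD24 (0.0075) and SOX4 did not pass. VCAM1 had at most 15 counts. Of the 90 related genes, 1 passed without control 1 (MMP1) and 0 in edgeR without control 2, the setting in which no gene of the table passed. With the length and GC offset 0 passed in edgeR, at 15 with an unadjusted p under 0.05, whereas ITGB1, MMP1, SOX12 and TGFB2 were among those that passed with the length offset alone.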

How the data were processed

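Per the labels' protocols, RNA of HK-2 cells under cisplatin went into libraries of a stranded mRNA kit. Trimmomatic 0.36 and GRCh38 appear in the submitters' processing notes. Aligner, counter, annotation and strand setting: not given in the sources used here. Deposited by the authors were unnormalized read counts and FPKM values, which rest on the same counts with 1 length per gene. The authors' deposited log2 fold changes and p-values are used only where named, their test not being given; for the members they equal those of DESeq2's Wald test to the printed digits. All 6 count columns matched a sample, with 16865460 to 23458333 counts each.

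Counts were fitted with edgeR 4.0.16 in R 4.3.3 (filterByExpr, TMM, glmQLFit and glmQLFTest on group alone, Benjamini-Hochberg over 15046 genes, threshold 0.05). The standard error of a fold change was taken as its absolute log2 value over the square root of F. Log2 CPM used a prior count of 2. The fit was checked on simulated counts without a length or GC trend. It recovered 36.5% of 2-fold and 89.4% of 4-fold changes, with 15 false calls among 14805 genes. A gene that did not pass may thus still differ by 2-fold. The 15 false calls are set against genes and not against the calls made. Their share among the calls was not tested. Whether the recovery is the same with as many genes passing as in the data was not tested either. Alternatives were no filter, DESeq2 1.42.0, limma 3.58.1 on FPKM, a length and GC offset (mgcv 1.9.3, GC of the longest GENCODE 29 transcript), a block for the replicate number and the omission of single libraries.

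Gene length is the ratio of counts to FPKM. Named genes are the members, up to 4 passing genes with the smallest adjusted p per list, and the 5 nearest to HAVCR1; other genes are given as values of their list. The members and lists were chosen with earlier results of these data known. Promoters are RefSeq windows, and coordinates of genes are those of the deposited table. Results for a few genes of the lists are not reported here.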

Additional observations from a re-analysis of the deposited data

How the results depend on the processing

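HAVCR1 kept its direction in all 16 alternatives, from -2.04 to -1.43 on the log2 scale, and missed the threshold in 4. When single libraries were left out it ran from -1.93 to -1.43, TIMP1 from 0.66 to 0.99, the number of members that passed from 0 to 2 and the number of all genes from 0 (without control 2) to 3649 (without library 2 labelled overexpression). SPP1 and SOX9 kept their direction and did not pass in any of the 16.

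With the length and GC offset 1 member and 104 genes passed, with the length offset, added after the data were seen, 1 and 1014, and on FPKM rescaled to a common sum 2 and 4703. In these 3 settings TIMP1 had 0.067, 0.32 and 0.37 and did not pass. CD44 reversed to 0.11 and 0.059 with the offsets and passed on rescaled FPKM (-0.74), log2(FPKM + 1) (-0.44) and log2(FPKM + 0.1) (-0.44). LCN2 reversed to -0.076 with the length and GC offset, and CLU (-0.012) and VIM (-0.14) on rescaled FPKM, where the median of all genes was -0.35. On log2(FPKM + 1) that median was -0.098, and 1198 genes rose against 2027 that fell, compared with 533 against 4170 on rescaled FPKM and 1448 against 1428 in the main analysis.

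The labels number the libraries 1 to 3 in both groups. Same-numbered libraries did not deviate together (correlations 0.0061, -0.51 and 0.088), so the numbers are not taken to pair them. Correlations between unlike-numbered libraries ran from -0.50 (control 3 with library 1 labelled overexpression) to 0.60 (control 2 with that library). The fit on group alone does not model such shared deviations. With the replicate block 0 genes passed in edgeR, at 4413 with an unadjusted p under 0.05; HAVCR1 had -1.64 (adjusted p = 0.0576) and TIMP1 0.81. With the replicate block and the offset, added after the data were seen, 0 genes passed, at 2281 with an unadjusted p under 0.05, and HAVCR1 had -1.81, TIMP1 0.071 and CD44 0.099. Fewer residual degrees of freedom enter these fits; the causes of the other shifts were not tested. Depth limits SOX9, at 68 to 258 counts, most.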
